A study of Homo sapiens with 6 samples.

Results

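The mitochondrial genome has 37 genes, and 9 of them are read from the minus strand: the tRNA genes MT-TQ, MT-TA, MT-TN, MT-TC, MT-TY, MT-TS1, MT-TE and MT-TP, and MT-ND6, which encodes a core membrane subunit of respiratory complex I. They were taken by their strand from the deposited isoform table, in which they made up 9 of the 99 analysed rows, beside 28 mitochondrial genes of the plus strand and 62 transcripts of chromosome X. The cells were LNCaP-AI, a castration-resistant prostate cancer line that stems from the androgen-sensitive line LNCaP. Of the 6 RNA-seq libraries, 3 were of cells carrying a vector as negative control and 3 of cells carrying the hairpin sh_0092339, aimed at the circular RNA hsa_circ_0092339 (called knockdown here). Since the labels name 1 hairpin, its action on other RNAs and its action by way of the circular RNA cannot be told apart. Nothing in the labels ties the replicates to separate cultures, so p-values reflect only the spread among these libraries, which may be technical.

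Mitochondrial DNA is transcribed from both strands into long precursors that carry many genes each. Along these precursors, tRNAs lie between and beside the longer genes, and their excision by RNase P and the 3′ endonuclease ELAC2 frees the mRNAs and rRNAs, an arrangement known as tRNA punctuation. The precursor that holds the minus-strand genes carries MT-ND6 as its protein-coding gene, while most of its length is antisense to genes of the plus strand and is normally short-lived. MT-TA, MT-TN, MT-TC and MT-TY form a compact cluster next to MT-CO1, and the origin of light-strand replication lies between MT-TN and MT-TC.

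The tRNA genes of the cluster are printed because the 3 minus-strand genes that passed the test for a difference between the groups were among them. MT-TE, which adjoins MT-ND6, and MT-TQ, which was read at a low level, are printed for comparison. The sequences are those of GENCODE 29, written 5′ to 3′ along the minus strand, without the CCA end that is added after transcription. The capitals mark the anticodon, found as the 3 letters that pair with the codons in the deposited gene description, preceded by T and followed by A or G. There was 1 such match in the middle part of each of the 8 tRNA genes.
MT-TA: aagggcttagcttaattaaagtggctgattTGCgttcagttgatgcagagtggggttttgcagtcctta
MT-TN: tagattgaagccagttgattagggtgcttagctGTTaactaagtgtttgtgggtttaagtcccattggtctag
MT-TC: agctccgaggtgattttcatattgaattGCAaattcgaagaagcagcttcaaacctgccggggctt
MT-TY: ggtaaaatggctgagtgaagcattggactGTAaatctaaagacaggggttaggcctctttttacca
MT-TE: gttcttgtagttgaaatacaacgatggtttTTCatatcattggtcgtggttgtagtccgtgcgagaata
MT-TQ: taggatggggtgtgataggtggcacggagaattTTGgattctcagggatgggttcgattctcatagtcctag

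All 9 genes are annotated on the mitochondrial genome as single-exon transcripts, and start, end and strand of all 37 mitochondrial rows equal those of GENCODE 29 on GRCh38. The cluster spans 305 bases. MT-TA, the tRNA for alanine, lies from 5587 to 5655, MT-TN, for asparagine, from 5657 to 5729, MT-TC, for cysteine, from 5761 to 5826, and MT-TY, for tyrosine, from 5826 to 5891. MT-TC and MT-TY thus share 1 base, and 31 bases separate MT-TN from MT-TC. MT-TQ, for glutamine, lies from 4329 to 4400 and shares 3 bases with MT-TI of the plus strand, and MT-TS1, a serine tRNA that reads UCN codons, lies from 7446 to 7514 directly after MT-CO1. MT-ND6 lies from 14149 to 14673, MT-TE, for glutamate, follows without a gap from 14674 to 14742, and MT-TP, for proline, lies from 15956 to 16023.

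The minus-strand genes also shared a base composition. It goes with the strand they were chosen by, so it is no independent trait. G was more frequent than C in the transcript of all 8 tRNAs and of MT-ND6, which held 35.6% G and 7.05% C. In the plus-strand transcripts G exceeded C in 1 of 14 tRNAs and in 0 of 12 mRNAs, whose median content was 11.2% G and 33.4% C.

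The depth recovered from count, length and FPKM (fragments scaled to transcript length and to the mapped fragments of the library) was 58091756 to 68990788 mapped fragments in the controls and 53127020 to 80559726 in the knockdown libraries. The mitochondrial genes took 7.88% to 8.59% of them in the controls and 7.502% to 8.01% in the knockdown. The targeted circular RNA, and the 21 marker genes listed for luminal, basal and neuroendocrine prostate cells and fibroblasts, were not analysed here, so neither the knockdown nor the cell type was checked. Of 54 nuclear genes listed for mitochondrial transcription, tRNA cutting and modification, RNA decay and charging of the member tRNAs, 0 were among the rows of the gene tables used here. Whether counting used the strand is not stated in the labels or processing notes, so reads of a minus-strand gene and of an antisense precursor cannot be told apart. Reads of nuclear copies of mitochondrial DNA may be included too.

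The minus-strand genes differed widely in level. In the controls, MT-ND6 was highest at 2621 ± 319 FPKM (mean ± SD, n = 3 here and below), followed by MT-TC at 2016 ± 92.3, MT-TN at 1548 ± 129, MT-TY at 1538 ± 26.0 and MT-TA at 661 ± 75.8 FPKM. MT-TE stood at 377 ± 41.2 and MT-TP at 194 ± 9.49 FPKM, and MT-TQ and MT-TS1 were lowest at 11.7 ± 4.97 and 8.32 ± 3.22 FPKM. Among neighbours in this order, MT-TN and MT-TY overlapped in their control values, as did MT-TQ and MT-TS1, and the others did not. In the knockdown libraries MT-TC overlapped with MT-TN, MT-TN with MT-TY and MT-TA with MT-TE.

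The tRNAs of the cluster were far more abundant per length than the neighbouring tRNA of the plus strand. MT-TW, the tryptophan tRNA that ends 7 bases before MT-TA, had 4.11 FPKM in the controls. It rested on 19, 13 and 22 counts there and on 29, 34 and 32 in the knockdown, so ratios to it are loose. The level of MT-TA was 128, 243 and 140 times that of MT-TW in control 1, 2 and 3 and 47.1, 92.8 and 68.0 times in knockdown 1, 2 and 3. The 14 tRNAs of the plus strand had control means from 4.11 FPKM for MT-TW to 1083.5 FPKM for MT-TL1, with a median of 29.01 FPKM. MT-TL1 thus stood above MT-TA. The 4 tRNAs of the cluster held 72.3 ± 2.54% of all counts on the 22 mitochondrial tRNAs in the controls and 66.1 ± 5.47% in the knockdown, and these shares overlapped. A gene of 66 to 73 bases is credited with any fragment assigned to that interval, so a mature tRNA and an uncut precursor are not separated in these values.

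**Figure D1:**
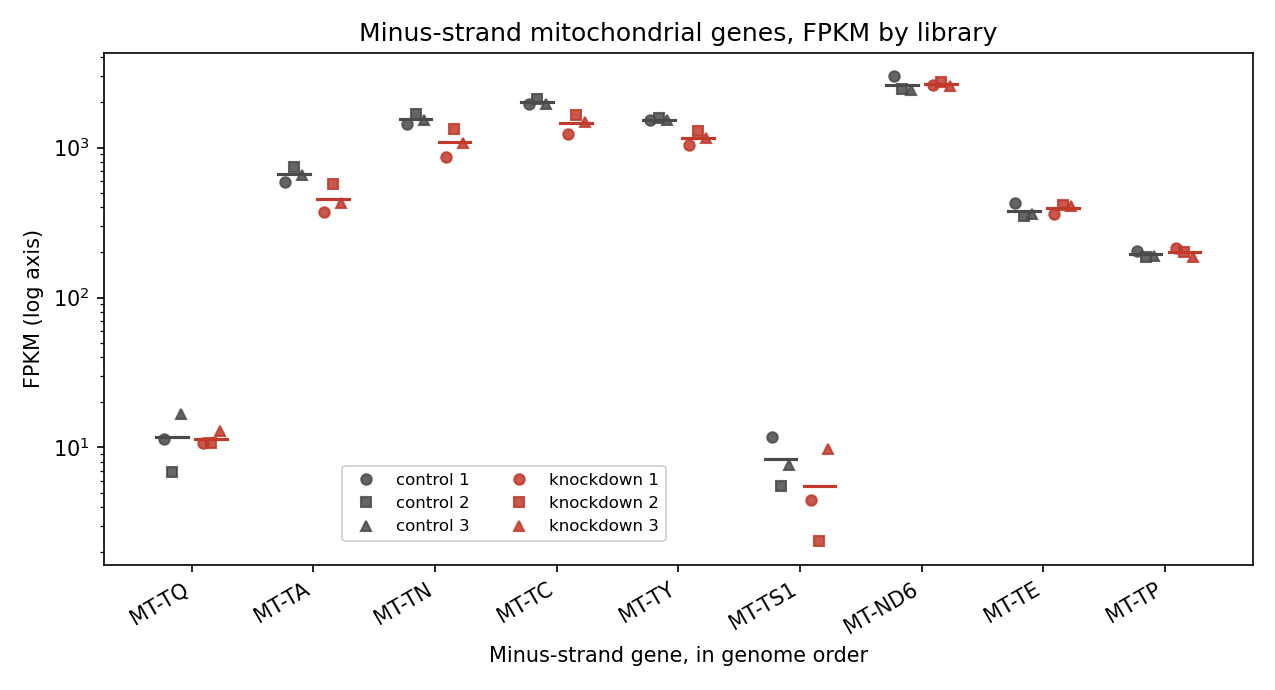
FPKM of the 9 minus-strand mitochondrial genes (log axis) in each of the 3 control (grey) and 3 knockdown (red) libraries, in genome order, with a horizontal line at each group mean. The groups separate for MT-TA, MT-TN, MT-TC and MT-TY, and overlap for the other 5 genes, of which MT-TQ and MT-TS1 lie below 17 FPKM.

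The comparison of knockdown with control libraries asks which transcripts differ in cells with the hairpin. In the cluster, MT-TY, MT-TC and MT-TN were lower in the knockdown libraries, with mean FPKM at 0.757, 0.721 and 0.700 of the control mean. MT-TA had a ratio of 0.689 but did not pass the test. The remaining tRNAs MT-TQ, MT-TS1, MT-TE and MT-TP and the mRNA of MT-ND6 did not pass it either. With quantile normalization, which sets values by rank among the tested isoforms, MT-TY had a log2 fold change of 0.04. The test covered 45 isoforms, of which 37 were mitochondrial genes, the 9 members included. Of all 45 isoforms tested, 9 fell, which is 20.0%, and 7 rose, which is 15.6% (11 and 4, or 24.4% and 8.89%, by edgeR with TMM factors). Among the 9 minus-strand genes 3 fell and 0 rose, with a median log2 fold change of -0.41, against 0.03 over all tested isoforms. In bulk RNA, fewer cells with a transcript and less of it per cell cannot be told apart. All 4 of the cluster and 0 of the other 5 had group ranges that did not overlap, with the knockdown lower, which was so for 28.9% of all tested isoforms.

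MT-TY, whose tRNA delivers tyrosine, had 1526, 1568 and 1520.5 FPKM in control 1, 2 and 3, from 5853, 6067 and 6924 counts. In knockdown 1, 2 and 3 it had 1044, 1291 and 1160.2 FPKM, from 3660, 6865 and 5638 counts. Its controls lay close together, within a coefficient of variation of 1.69%, and every knockdown library was below them. Its fall on the log2 scale was -0.41 ± 0.0863 (SE; limma on log2(FPKM + 1), adjusted p = 0.0213).

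MT-TC, whose tRNA delivers cysteine, had 1960.2, 2123 and 1966 FPKM in the controls. It had 1230.3, 1645 and 1484 FPKM in the knockdown libraries. The highest knockdown value, in knockdown 2, was still below the lowest control. Its fitted log2 fold change was -0.48 ± 0.113 (SE; limma, adjusted p = 0.0267).

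MT-TN, whose tRNA delivers asparagine, had 1427, 1683 and 1533 FPKM in the controls. It had 864, 1323 and 1065 FPKM in the knockdown libraries. Knockdown 2 came nearest to the controls. The fit gave it a log2 fold change of -0.53 ± 0.162 (SE; limma, adjusted p = 0.0474).

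MT-TA, whose tRNA delivers alanine, had 589, 740.2 and 655 FPKM in the controls. It had 372, 568 and 426 FPKM in the knockdown libraries. The groups did not overlap, but knockdown 2 lay close to control 1, and the spread within each group was the widest of the cluster, with coefficients of variation of 11.5% and 22.2%. The log2 fold change of -0.55 ± 0.177 (SE) had a 95% interval of -0.99 to -0.12 before adjustment and did not pass the test (limma, adjusted p = 0.0535).

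The libraries of a group deviated alike in the whole cluster: control 2 had the highest control value in all 4 genes, knockdown 1 the lowest knockdown value and knockdown 2 the highest. In MT-TA, MT-TN and MT-TC control 1 was the lowest control, so the order by replicate number was the same in both groups. Knockdown 1 had the fewest mapped fragments of the 6 libraries and knockdown 2 the most, and among the controls control 3 had the most. The part of depth in these values was not tested. The calls depended on single libraries. Without control 1, control 2 or knockdown 3, limma called 0 of the 9 genes (4, 2 and 4 at an unadjusted p under 0.05), while 11.1%, 13.3% and 11.1% of all tested isoforms fell, with adjusted p of 0.0640, 0.0721 and 0.0709 for MT-TY, 0.0659, 0.0865 and 0.0709 for MT-TC and 0.0868, 0.149 and 0.106 for MT-TN. Without control 3 or knockdown 1, 20.5% and 15.6% of the isoforms fell, MT-TY and MT-TC among them but not MT-TN (limma adjusted p = 0.0692 and 0.114). Without knockdown 2, when 24.4% of the isoforms fell, all 4 genes of the cluster were called, MT-TA with a limma adjusted p of 0.0123. MT-TN was not called by edgeR with library size only or with TMM factors either (adjusted p = 0.0705 and 0.0770). With no filter on low values and with median centring limma called 0 of the 9 genes, with adjusted p of 0.0801 and 0.144 for MT-TY, 0.117 and 0.138 for MT-TC and 0.186 and 0.144 for MT-TN. With quantile normalization of the tested isoforms the difference vanished, MT-TA and MT-TC having a log2 fold change of 0, MT-TN of -0.04 and MT-TY of 0.04. Values under that scaling are set by rank, so a fall that leaves the rank unchanged cannot show. MT-RNR1, with a ratio of 0.667, also had a log2 fold change of 0 there.

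**Figure D2:**
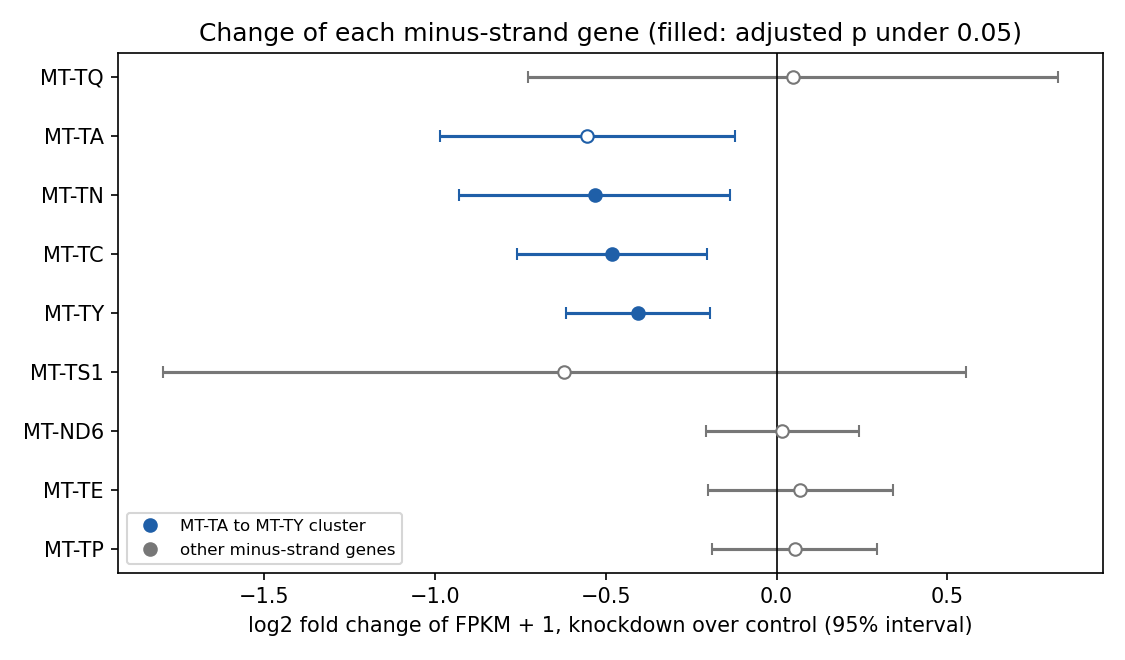
Log2 fold change of FPKM + 1, knockdown over control, for each minus-strand gene with its unadjusted 95% interval (limma, 3 against 3 libraries), filled where the adjusted p is under 0.05. MT-TN, MT-TC and MT-TY are filled, at -0.53, -0.48 and -0.41. With quantile normalization, which sets values by rank, MT-TY is at 0.04. The intervals of MT-ND6, MT-TE and MT-TP span 0 while those of MT-TQ and MT-TS1 are the widest.

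MT-ND6, the complex I subunit and the minus strand's mRNA, had 2988, 2466 and 2410.1 FPKM in the controls, from 91143, 75868 and 87296 counts. It had 2621, 2746 and 2557 FPKM in the knockdown libraries, from 73091, 116138 and 98831 counts. Control 1 was the highest of all 6 libraries and the other controls were the lowest, so the knockdown values lay inside the control range. Its log2 fold change was 0.02 ± 0.0919 (SE), with a 95% interval of -0.21 to 0.24 (limma, adjusted p = 0.891). A fall as large as the -0.41 of MT-TY lay outside this interval. Without control 2, control 3 or knockdown 2 the change of MT-ND6 turned its sign, to -0.02, -0.04 and -0.01. With median centring of all 6 libraries the change was -0.16, and its 95% interval of -0.69 to 0.37 (limma) included such a fall.

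MT-TE, the glutamate tRNA directly beside MT-ND6, had 424, 347 and 359.6 FPKM in the controls. It had 362, 417 and 406 FPKM in the knockdown libraries. The groups overlapped, with control 1 highest as for MT-ND6. The fitted change was 0.07 with a 95% interval of -0.20 to 0.34 (limma, adjusted p = 0.713). Within a library MT-TE stood at 0.142, 0.141 and 0.149 of the level of MT-ND6 in the controls and at 0.138, 0.152 and 0.159 in the knockdown, values that overlapped.

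MT-TP, the proline tRNA and the minus-strand gene nearest to the control region, had 205, 187 and 189.8 FPKM in the controls. It had 215, 203 and 187 FPKM in the knockdown libraries. The groups overlapped, with a log2 fold change of 0.05 and a 95% interval of -0.19 to 0.29 (limma, adjusted p = 0.722). With median centring the changes of MT-ND6, MT-TE and MT-TP were negative, at -0.16, -0.11 and -0.13, while the median over all tested isoforms moved from 0.03 to -0.15.

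MT-TQ and MT-TS1 rested on few counts. MT-TQ had 48, 29 and 84 counts in the controls and 41, 63 and 69 in the knockdown, or 11.4, 6.86 and 16.8 FPKM and 10.7, 10.7 and 12.9 FPKM. The controls of MT-TQ enclosed all its knockdown values. Its ratio of means was 0.981 while its fitted log2 fold change was 0.05, the opposite sign, with a 95% interval of -0.73 to 0.82 (limma, adjusted p = 0.891). MT-TS1 had 48, 23 and 37 counts in the controls and 17, 14 and 50 in the knockdown, or 11.8, 5.52 and 7.60 FPKM and 4.49, 2.36 and 9.72 FPKM. Its ratio of 0.664 was of the size seen in the cluster, but knockdown 3 exceeded 2 of the controls, and the 95% interval of the log2 fold change ran from -1.79 to 0.55 (limma, adjusted p = 0.377). For both genes the interval of the change included 0 and the values of the cluster, so a change like that of the cluster could not be told from none given the spread between libraries.

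**Figure D3:**
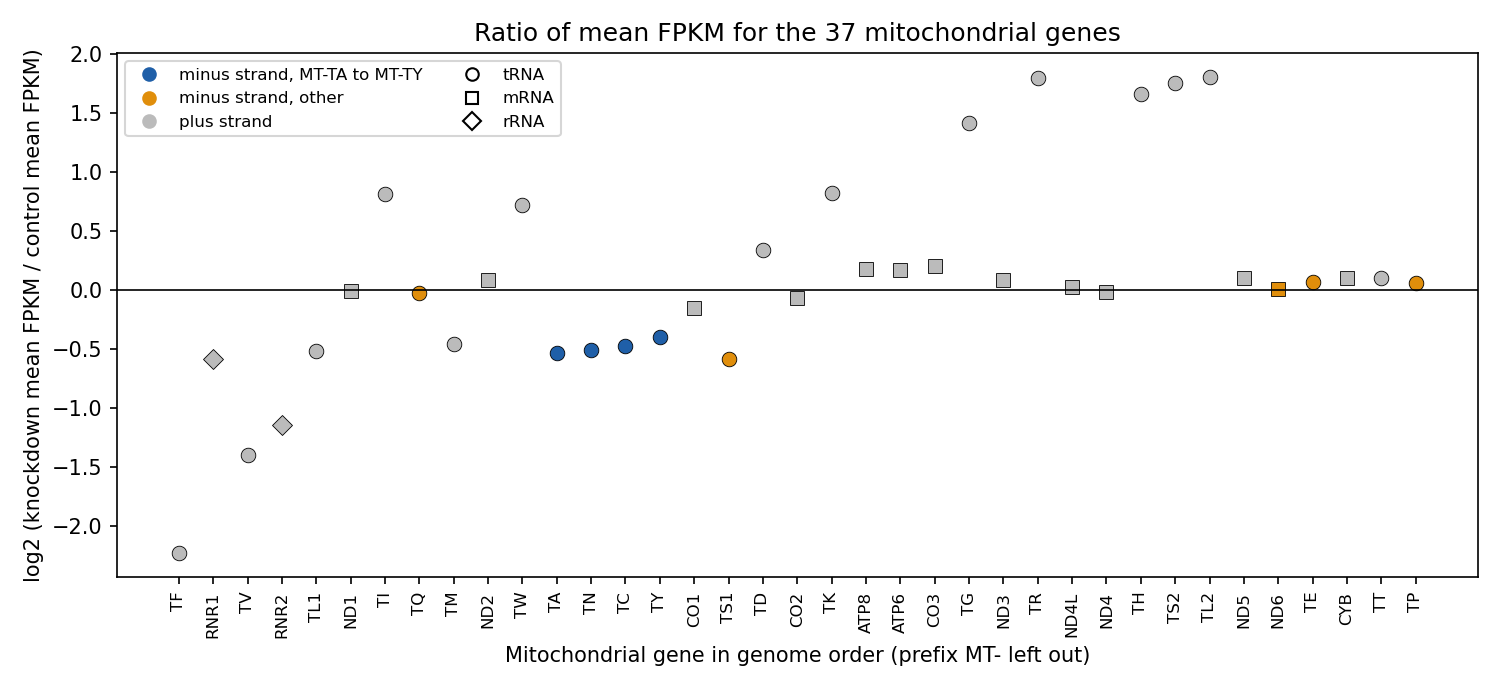
Log2 ratio of the mean FPKM, knockdown over control (n = 3 each), for the 37 mitochondrial genes in genome order, with the cluster in blue, the other minus-strand genes in orange and the plus strand in grey, and symbols for tRNA, mRNA and rRNA. The 4 genes of the cluster lie together between -0.54 and -0.40, between MT-TW at 0.72 and MT-CO1 at -0.15, while MT-ND6, MT-TE and MT-TP lie near 0. MT-TF, MT-TV, MT-RNR2, MT-RNR1 and MT-TS1 lie lower than the cluster, and MT-TL1 and MT-TM within its range, at -0.52 and -0.46. Of the 14 plus-strand tRNAs, 4 lie below 0.

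Set against the other minus-strand genes, the cluster took a smaller part in the knockdown libraries. The summed FPKM of its 4 genes was 5502, 6114 and 5674 in the controls and 3509.6, 4828 and 4136 in the knockdown, and that of the other 5 genes was 3640.3, 3013 and 2984 in the controls and 3212, 3378 and 3172 in the knockdown. The ratio of both sums was 1.51, 2.03 and 1.90 in the controls and 1.09, 1.43 and 1.30 in the knockdown, so the groups did not overlap, although control 1 and knockdown 2 were close. On the log2 scale the controls had 0.85 ± 0.223 and the knockdown libraries 0.34 ± 0.197. These sums were built from chosen genes and received no test. With the tRNAs alone, leaving out MT-ND6, the ratio stood at 9.84 ± 1.37 in control libraries and at 6.76 ± 0.852 in knockdown libraries.

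As a share of all mapped fragments, the cluster held 0.0375%, 0.0418% and 0.0387% in the controls and 0.0239%, 0.0330% and 0.0282% in the knockdown. MT-ND6, with its greater length, held 0.138 ± 0.0168% and 0.139 ± 0.00505%. The 9 genes together held 0.181 ± 0.0157% in the controls and 0.171 ± 0.00890% in the knockdown, and these ranges overlapped. MT-ND6 made up 75.9 ± 2.63% of the minus-strand counts in the controls and 81.0 ± 1.88% in the knockdown, without overlap.

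**Figure D4:**
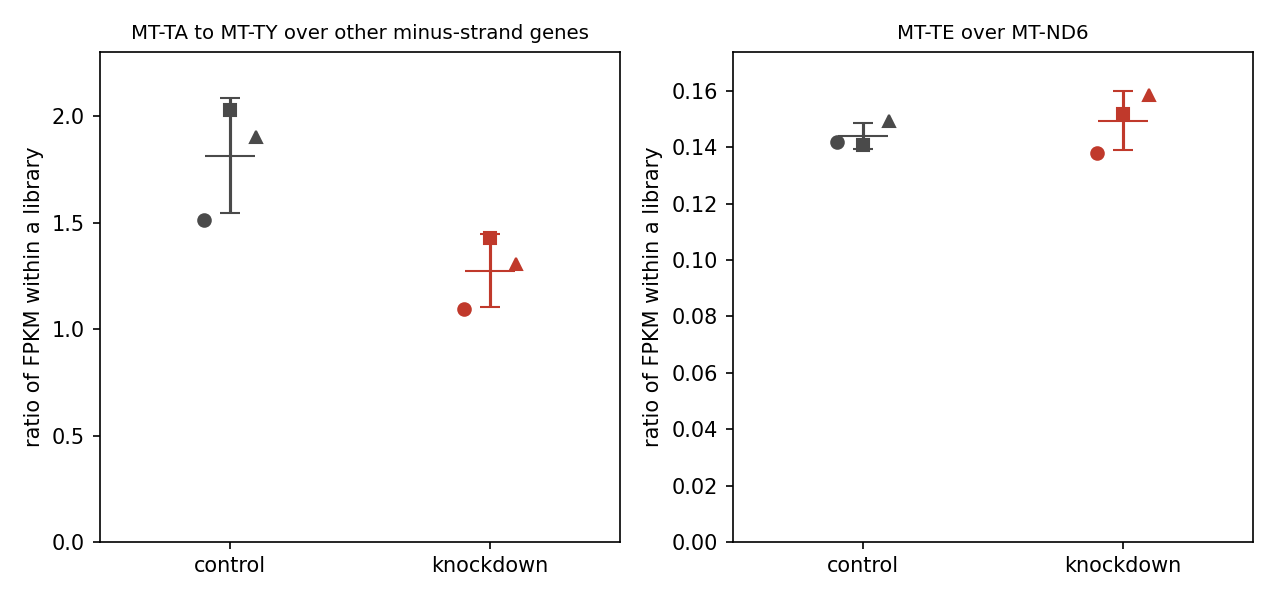
Ratios of FPKM within each library for controls (grey) and knockdown (red), with the group mean and SD (n = 3 each): the cluster from MT-TA to MT-TY over the other 5 minus-strand genes (left), and MT-TE over MT-ND6 (right). The left ratio is 1.51 to 2.03 in the controls and 1.09 to 1.43 in the knockdown, and the right ratio overlaps between the groups.

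Within the cluster, the ratio of knockdown to control mean went from 0.757 for MT-TY, next to MT-CO1, over 0.721 and 0.700 for MT-TC and MT-TN to 0.689 for MT-TA at the other end. This order was not separated from the spread between libraries: the level of MT-TA was 0.386, 0.472 and 0.431 of that of MT-TY in the controls and 0.356, 0.440 and 0.367 in the knockdown, and the ranges overlapped. The level of MT-TC over MT-TY was 1.28 to 1.35 in the controls and 1.18 to 1.28 in the knockdown, which met almost without a gap.

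MT-CO1, the plus-strand mRNA of a cytochrome c oxidase subunit that begins 12 bases past MT-TY, had a ratio of 0.899. The level of MT-TY was 15.8%, 17.4% and 16.9% of that of MT-CO1 in the controls and 13.0%, 14.5% and 14.6% in the knockdown, so the groups did not overlap on this scale either. MT-TW on the other side of the cluster had a ratio of 1.65. Of the other mitochondrial genes, the rRNAs fell (2 of 2), 3 of 14 plus-strand tRNAs fell and 5 rose, and 0 of 12 plus-strand mRNAs fell and 2 rose. Among those that fell, MT-TF, MT-TV, MT-RNR2 and MT-RNR1 had ratios of 0.213, 0.378, 0.452 and 0.667, lower than any in the cluster. MT-TL1, at 0.697, lay within the range of the cluster. MT-ND6 and MT-TE lie between MT-ND5, with a ratio of 1.075, and MT-CYB, with a ratio of 1.072. The level of MT-ND6 was 104% to 117% of that of MT-ND5 in the controls and 92.1% to 108% in the knockdown.

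Likeness of pattern was measured as the root mean square difference of log2(FPKM + 1), centred on each isoform's mean, over the 6 libraries, against the 44 other tested isoforms. MT-TA and MT-TN were most like each other, at 0.0449, and MT-TC and MT-TY were most like each other, at 0.0588. The 3 isoforms most like MT-TA, MT-TN or MT-TC were the other genes of the cluster. For MT-TY the second was MT-RNR1, the 12S rRNA of the plus strand, at 0.119, ahead of MT-TN at 0.123. MT-ND6 was most like MT-ND1, a plus-strand mRNA of complex I, at 0.0443, then MT-TE at 0.0699 and MT-ND2 at 0.0764. The values share libraries and scaling, so this is a description.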

How the data were processed

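Total RNA of LNCaP-AI cells had been extracted with Trizol, per the labels' protocols, and reads were handled with StringTie, HISAT2 and cutadapt (no versions given) and the build hg18, per the submitters' processing notes. The positions of all 37 mitochondrial rows equal those of GENCODE 29 on GRCh38, a build other than the one the notes name. Removal of ribosomal RNA is not stated in the notes. The authors deposited FPKM values and whole-number counts side by side per isoform, with its length, per the file headers; a count of 0 is listed at an FPKM of 0.0001. Mapped fragments per library were recovered as the median of count over length and FPKM for isoforms with at least 1000 counts.

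Isoforms averaging 1 FPKM or more (45 of 99, all 9 members among them) were tested with limma 3.58.1 (trend, R 4.3.3) on log2(FPKM + 1), a scale that understates changes of low genes. P-values were adjusted by Benjamini-Hochberg over the 45 rows, and calls have an adjusted p under 0.05. Of these rows 37 were mitochondrial, so scalings and shares over the tested isoforms rest mostly on mitochondrial genes. Alternatives were other pseudocounts, filters and scalings, edgeR 4.0.16 and DESeq2 1.42.0 on the counts, the replicate number as a block, and omission of each library in turn. The fit was also run on simulated counts, drawn independently for each isoform, so they lack the shared deviations of the cluster genes. The outcome is not reported here. Chi-square per degree of freedom was 87.7 to 384 between libraries of a group, so none was a repeated deposit. The named genes were all 9 minus-strand genes, their direct neighbours on the genome and the 3 isoforms most like each of MT-ND6 and the cluster genes. The members and lists were chosen with earlier results of these data known.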

Additional observations from a re-analysis of the deposited data

How the results depend on the processing

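The calls in the cluster depended on scaling and on single libraries. With no filter its log2 fold changes were unchanged. With median centring they were -0.58, -0.66, -0.71 and -0.73 for MT-TY, MT-TC, MT-TN and MT-TA, with larger SE (0.263 to 0.326). By limma 0 members were called with no filter on low values (4 at an unadjusted p under 0.05), with median centring (1) and with quantile normalization (0), and 0 to 4 when a library was left out. Quantile normalization cannot show a fall that leaves the rank of an isoform unchanged. The 2 other pseudocounts left 3 called members, scaling to plus-strand mRNAs and DESeq2 gave 4 (with 13 and 12 falls over all 45 isoforms, against 9), and edgeR gave 2 with either scaling, without MT-TN. Of all isoforms, 16 were called in the report's test, 22 with scaling to plus-strand mRNAs, 21 by DESeq2, 15 by edgeR with TMM factors and 10 with library size only, 5 with no filter, 8 with median centring, 5 with quantile normalization and 5 to 16 with a library left out. The log2 fold change turned its sign for MT-TY with quantile normalization (0.036), for MT-TE (-0.11) and MT-TP (-0.13) with median centring, for MT-ND6 with median centring (-0.16), scaling to plus-strand mRNAs (-0.030) and edgeR with TMM factors (-0.017), and for MT-TQ with median centring (-0.13), edgeR (-0.029 with library size only, -0.053 with TMM factors) and DESeq2 (-0.0055). With a library left out it ran from -0.26 to 0.33 for MT-TQ and from -0.040 to 0.11 for MT-ND6. For the cluster it stayed negative, from -0.72 to -0.42 for MT-TA, -0.69 to -0.38 for MT-TN, -0.58 to -0.37 for MT-TC and -0.48 to -0.33 for MT-TY. The cause of the differences between settings was not tested. The log2 difference of the cluster against the other minus-strand genes was -0.51, from -0.63 to -0.40 with a library left out and from -0.54 to -0.50 under its other alternatives. The minus-strand share of mapped fragments had a ratio of 0.946, and of 0.750 for the tRNAs only.

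Deviations of same-numbered libraries over 45 isoforms correlated at -0.257, 0.220 and 0.0231, and those of other-numbered libraries at -0.220 to 0.187. Over these isoforms no general pairing by replicate number was seen. In MT-TA, MT-TN and MT-TC, however, the order of the libraries by number was the same in both groups. With the replicate block limma called 4 members, MT-TA included (adjusted p = 0.0256), and 15 isoforms in all. MT-TQ and MT-TS1 rest on 14 to 84 counts and varied widely between libraries.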
